A study of Oryctolagus cuniculus with 6 samples.

Results

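A last exon is separate when it shares no base with any other last exon of its locus, so that a transcript ending there has a 3′ end of its own. In rabbit (Oryctolagus cuniculus) skin at an age of 30 days, 2308 of the 16650 last exons listed in at least 1 library were of this kind. They belonged to 1082 of the 14328 loci that had a last exon. Members were found by position alone: among the 3975 last exons of the 1653 loci with 2 or more, those overlapping another last exon of the same locus (1667) were set aside. The rule used no expression value apart from the listing of an event. The closest members, on scaffold GL018729, lie 6 bases apart (0.227 and 2.68 FPKM on average). The last exons that just fail it, on scaffold GL019596, share 17 bases (0.309 and 2.02 FPKM).

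The 6 libraries come from skin, frozen on dry ice. The knockout group consists of 3 libraries labelled Prss53-/-, a genotype made with CRISPR/Cas9, and the wild-type group of 3 libraries labelled wild type. Both groups have the same age and tissue. The targeted gene codes for a trypsin-like serine protease, and the study's title ties it to hair curvature and skeletal dysplasia. Whether the 3 libraries of a genotype stem from different animals is not stated. The p-values therefore describe the spread among these libraries alone, which may be technical. The labels do not give the targeted exon, the number of founder lines or the strain, and they name CRISPR/Cas9 as the treatment of all 6 libraries. Levels are FPKM, fragments per kilobase of transcript scaled to the mapped fragments of the library, as deposited. No counts are given, so depth is unknown, and an event without a row in a library is called not listed and entered as 0.

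The last exon of a gene carries the cleavage and polyadenylation site, where the nascent RNA is cut and given its poly(A) tail. When a transcript ends in an upstream (proximal) last exon, the exons beyond it are left out. Such a switch can change the C terminus of the protein as well as the 3′ UTR, which is where many microRNAs and RNA-binding proteins attach. Choosing between separate last exons thus differs from the choice between several cleavage sites within 1 exon, which alters the UTR alone. In other mammals, proximal sites inside introns are known to be held back by U1 snRNP and to be favoured when splicing is slow. The files pair no gene names with Ensembl IDs, and the RefSeq gene table supplied with them matched 0 of 12276 IDs. Neither the level of Prss53 nor markers of skin cell types were therefore analysed here, and loci are given by position and Ensembl ID. The genome build is not given in the sources used here, and no sequence is printed.

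Most loci with members had a simple layout. Of the 1082 loci, 964 had at least 2 separate last exons (760 had exactly 2, 159 had 3, and 45 had 4 or more, up to 6). The other 118 had 1 separate last exon beside overlapping ones. Numbered chromosomes and X held 848 of the loci and unplaced scaffolds 234, with the most on chromosomes 13 (78), 12 (70) and 2 (67). An Ensembl ID was attached to 883. At 792 of the 964 loci only 1 first exon was listed. Whether transcripts with either end start there was not tested. At 92 loci (9.54%) a first exon was listed beyond the proximal last exon, so the ends there need not share a start.

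Along the direction of transcription, the proximal and the distal last exon differed in length, FPKM and listing. The rule used the start and end of each last exon, so length and distance are not independent of it. FPKM values did not enter it. The distance between their outer ends had a median of 18316.5 bases, with quartiles of 6345.5 and 46724.8 bases. The distal last exon had a median length of 810.5 bases (quartiles 214.75 and 2193) and the proximal one of 411.5 bases (137 and 1015.5). It was the longer of the pair at 591 of 964 loci (61.3%). Distal last exons also had higher FPKM, with a median of 1.25 FPKM over the 6 libraries against 0.259 FPKM for proximal and 0.315 FPKM for middle ones. Of the 964 distal last exons 417 (43.3%) were listed in all 6 libraries, and of the 964 proximal ones 212. These are descriptions of 1 set of libraries, and no test was made of them.

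Separate last exons were listed less regularly than other last exons. Only 705 of the 2308 (30.5%) had a row in all 6 libraries, while 947 (41.0%) had a row in a single library. For overlapping last exons the shares were 35.9% and 29.9%, and for loci with a single last exon they were 62.3% and 20.7%. Members seen in 1 library had a median of 0.612 FPKM, and those seen in all 6 had 5.11 FPKM. Knockout replicate 3 contributed 245 of the members seen once, against 124 and 165 in knockout replicates 1 and 2 and 116, 139 and 158 in wild type. It also differed in how pairs were listed. Knockout replicate 3 had both the proximal and the distal last exon at 302 loci, where the other 5 libraries had both at 232 to 264. To what extent missing rows reflect absent transcripts or incomplete assembly was not tested.

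**Figure D1:**
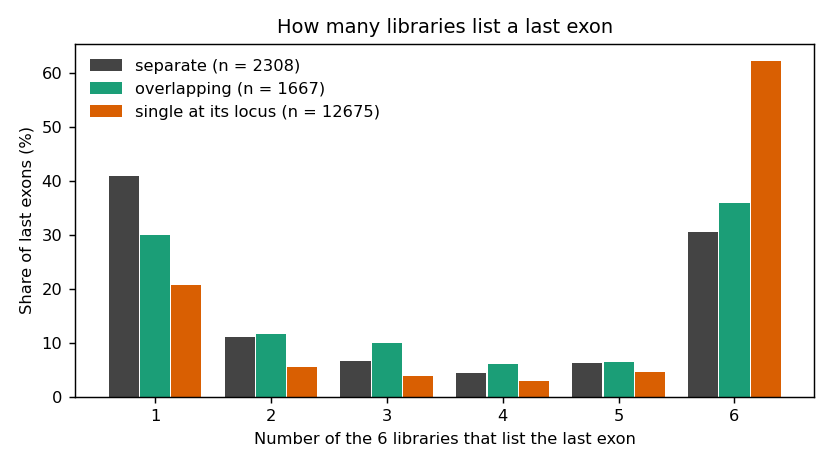
Share of last exons (y axis, %) by the number of the 6 libraries that list them (x axis), for separate last exons, overlapping last exons and last exons that are alone at their locus. Separate last exons stand highest in the bar for 1 library (41.0%) and lowest in the bar for 6 libraries (30.5%).

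The distal last exon was the main end at most loci in every library. For the 964 loci with 2 or more, the distal share was defined as the FPKM of the distal-most separate last exon divided by the FPKM of the proximal-most and distal-most together. At the 499 loci where these 2 summed to at least 1 FPKM in each library, the mean distal share was 68.2%, 67.9% and 64.6% in the knockouts and 67.5%, 68.4% and 67.9% in wild type. The group means were 66.9% ± 1.97 and 67.9% ± 0.430 (SD, n = 3 per group), so the groups overlapped, and knockout replicate 3 was the lowest library. Without it the knockout mean was 68.0%. Loci with a distal share above 50% numbered 340 to 351 per library.

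Most loci had nearly all of the listed FPKM of the pair at 1 end. The mean distal share over the 6 libraries was above 90% at 249 loci (49.9%), below 10% at 85 (17.0%) and in between at 165 (33.1%). Rows not listed count as 0 in these shares. At the 77 loci with both ends listed in all 6 libraries, the mean distal share was 59.7% to 63.1% per library. Where the distal last exon was the longer of the pair (325 loci), its mean share was 76.8% ± 2.63 in knockout and 78.1% ± 0.423 in wild type. Where the proximal one was longer (173 loci), it was 48.3% ± 0.783 and 48.8% ± 0.529. With outer ends under 5000 bases apart (94 loci) the distal share was 55.4% ± 3.10 and 56.8% ± 1.56, and with ends over 50000 bases apart (130 loci) it was 75.5% ± 4.70 and 77.3% ± 0.230 (all SD over 3 libraries). In each of these 4 sets the genotypes differed by less than the larger of their SDs. By level, the distal share was 68.4% ± 2.63 and 67.7% ± 0.529 at 162 loci of 1 to 5 FPKM and 68.2% ± 1.90 and 69.7% ± 0.889 at 251 loci of 5 to 20 FPKM. At the 86 loci of 20 FPKM or more the knockout mean was 60.3% ± 1.37 and the wild-type mean 63.4% ± 0.918, a gap larger than either SD that was not tested. FPKM assigns fragments by transcript model, and how far exon length itself moves the share was not tested.

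Individual loci varied more among knockout than among wild-type libraries. Averaged over the 499 loci, the SD of the distal share within a group was 10.3 percentage points in knockout and 6.88 in wild type. The mean absolute difference between 2 libraries was 7.82 to 8.67 points for the wild-type pairs. It was 9.94 points between knockout replicates 1 and 2, and 13.7 and 13.6 points between knockout replicate 3 and those. Knockout replicate 1 lay 9.66 to 9.87 points from the wild-type libraries, about as far as from knockout replicate 2. Knockout replicate 2 lay 10.7 to 11.5 points from them and knockout replicate 3 lay 14.4 to 15.5 points. Wild-type libraries were thus closer to each other than to any knockout, whereas the knockouts were about as far from each other as from wild type. The same held for spread at the 77 loci with both ends listed in all 6 libraries, where the mean SD was 10.8 points in knockout and 5.66 in wild type.

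The choice of the main end was likewise stable at most loci. Of the 638 loci with members whose last exons summed to at least 1 FPKM in every library, 456 (71.5%) had the same highest last exon in all 6. At 38 loci knockout replicate 3 alone differed from the 5 other libraries, compared with 9 and 23 for knockout replicates 1 and 2 and 12, 13 and 7 for the wild types. At 8 loci a last exon was highest in all 3 knockouts and a different one in all 3 wild types, and 4 of these are among the called loci described further on. No separate last exon of the other 4 passed a test of its share.

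Of these 4, the locus on scaffold GL018749 from 970110 to 1040233 (ENSOCUG00000008559) had both ends listed in every library. Its distal share was 58.0%, 58.0% and 67.8% in the knockouts and 38.4%, 48.4% and 45.9% in wild type. The groups do not overlap, with a difference of 17.1 ± 4.41 points (SE, limma adjusted p = 0.373). At the minus-strand locus on chromosome 2 from 94471191 to 94481964 (ENSOCUG00000017085) the distal share was 68.2%, 60.6% and 50.3% in knockout and 0%, 30.9% and 32.0% in wild type (limma adjusted p = 0.405). The remaining 2, chosen after their values were seen, turned on a last exon that overlaps another. On chromosome 13 from 126967236 to 127002503 (ENSOCUG00000023797), the separate proximal last exon carried 42.3%, 32.5% and 27.6% of the locus in knockout and 73.6%, 100% and 100% in wild type. On scaffold GL018736 from 962125 to 1068956 (ENSOCUG00000001884), the highest last exon of either genotype was an overlapping one.

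Each last exon was then tested on its share of all last-exon FPKM of its locus (limma on shares, Benjamini-Hochberg adjustment over all 2561 last exons at loci with 2 or more and at least 1 FPKM in every library, two-sided). Of the 1346 separate last exons tested, 17 at 10 loci passed an adjusted p under 0.05, with 7 higher and 10 lower in knockout. That is 1.26%, and over all last exons tested 1.21% passed (0.508% higher and 0.703% lower), so separate last exons were called about as often as the whole table. At an unadjusted p under 0.05 there were 72 members (5.35%), against 6.68% of all tested. Groups that did not overlap were found for 111 members (8.25%), against 9.72% of all tested. Of these members 55 were higher and 56 lower in knockout, against 4.84% and 4.88% of all tested. The median difference in share, on a scale from 0 to 1, was 0.00192 for members and 0.00126 over all tested. At a locus with 2 last exons the shares sum to 1, so both ends give the same test with opposite signs. The 17 calls are thus not independent. The split into higher and lower and the median difference are partly fixed by construction.

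With 1 value per locus, the distal share itself passed at 9 of 499 loci (1.8% of those tested, limma adjusted p under 0.05). It was higher in knockout at 5 (1.0%) and lower at 4 (0.802%), so the called loci showed no common direction towards the proximal or the distal end. An unadjusted p under 0.05 was reached by 23 loci (4.61%), and the groups did not overlap at 38 (7.62%), with 18 higher (3.61%) and 20 lower (4.01%). Both tests together named 11 loci, 10 of them with an Ensembl ID and 7 on the minus strand. At 9 of the 11 a separate last exon was listed in all 3 libraries of 1 genotype and in none of the other, so most calls involve rows missing from a whole genotype. When both last exons had to be listed in all 6 libraries, 77 loci remained and the distal share passed at 0 of them (limma, 5 at an unadjusted p under 0.05). Summed over their last exons, the 11 loci had a mean of 1.79 to 11.7 FPKM and a median of 4.18 FPKM, where the 638 loci had 7.33 FPKM.

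**Figure D2:**
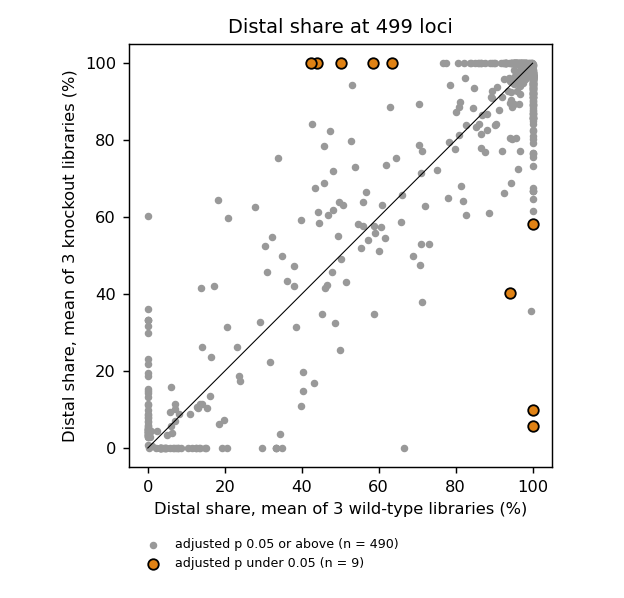
Mean distal share in the 3 knockout libraries (y axis, %) against that in the 3 wild-type libraries (x axis, %), 1 point per locus for 499 loci, with the line of equality. The 9 loci with an adjusted p under 0.05 are the larger orange points, 5 above and 4 below the line, and 8 of them sit on the edge at 100% of 1 genotype.

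The 5 loci that moved towards the distal end in knockout shared 1 pattern: the proximal last exon was listed in every wild-type library but in no knockout, while the distal one was listed in all 6. The clearest was on the minus strand of scaffold GL018823 from 92561 to 113745 (ENSOCUG00000025228). Its proximal last exon (798 bases, 109276 to 110073) had 5.91, 5.44 and 3.95 FPKM in wild type. The distal one (516 bases, 92561 to 93076) had 6.03, 5.86 and 4.87 FPKM in knockout and 5.12, 3.33 and 2.94 FPKM in wild type. The distal share was 100% in each knockout and 46.4%, 38.0% and 42.6% in wild type, so the groups lie far apart (difference 57.7 ± 3.00 points SE, limma adjusted p = 0.00153). The call held whichever library was dropped (6 of 6 fits, adjusted p at most 0.0215).

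A large minus-strand locus on chromosome 16, from 84197683 to 84477082 (ENSOCUG00000013453), had 3 separate last exons. The proximal one, 236 bases at 84435818 to 84436053, had 2.21, 2.35 and 2.72 FPKM in wild type and was not listed in knockout. The middle one (84318439 to 84319846) had 1.55, 2.13 and 1.42 FPKM in knockout and 2.39, 2.31 and 2.97 FPKM in wild type. The distal one (84197683 to 84199777) had 2.98, 2.87 and 2.99 FPKM in knockout and 4.39, 4.05 and 4.18 FPKM in wild type. All 3 were thus lower in each knockout than in each wild-type library, and the proximal share of all last-exon FPKM fell from 26.4% to 0% (limma adjusted p = 0.00944, held in 4 of 6 fits with a library dropped). The distal share was 100% in knockout and 66.5%, 63.3% and 60.6% in wild type (difference 36.6 ± 2.59 points SE, limma adjusted p = 0.00259). It passed in all 6 fits that left out 1 library (adjusted p at most 0.0255). This ratio leaves out the middle last exon. Of all last-exon FPKM the distal one carried 63.7% in knockout and 45.9% in wild type on average. That difference did not pass (limma adjusted p = 0.199). The summed level of the locus fell as well, from 8.99, 8.71 and 9.87 FPKM to 4.53, 4.99 and 4.41 FPKM (log2 change -0.85 ± 0.14 SE on the log2(FPKM + 1) scale, limma adjusted p = 0.0487). That call was lost whichever library was dropped (adjusted p up to 0.261).

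On chromosome 1, the minus-strand locus from 75175685 to 75233865 (ENSOCUG00000008540) had low levels. The proximal last exon (75183082 to 75183406, 325 bases) was at 1.22, 0.627 and 1.40 FPKM in wild type and not listed in knockout. The distal one (75175685 to 75176487) had 2.12, 1.20 and 1.74 FPKM in knockout and 0.736, 0.749 and 0.931 FPKM in wild type. Here the distal last exon was higher in every knockout than in every wild-type library, while the locus as a whole overlapped between groups. Its distal share of 37.7%, 54.4% and 39.9% in wild type rose to 100% (limma adjusted p = 0.00707, passing in all 6 fits that left out 1 library). The test of the same shares among all last exons passed in 5 of 6 (adjusted p up to 0.0555).

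The other 2 loci of this kind lost the call in most fits that left out a library. On scaffold GL018713 from 542093 to 793428 (ENSOCUG00000012808, minus strand), the proximal last exon had 1.69, 3.04 and 2.09 FPKM in wild type. The distal share rose from 50.2% ± 10.6 to 100% (SD, n = 3, limma adjusted p = 0.0176), and it passed in 2 of 6 such fits (adjusted p up to 0.0737). On chromosome 21, from 8967122 to 8985412 (ENSOCUG00000003827, minus strand), the 108-base proximal last exon had 2.11, 1.56 and 1.80 FPKM in wild type. The distal share rose from 58.4% ± 9.76 to 100% (limma adjusted p = 0.0263) and passed in 1 of 6 (adjusted p up to 0.104). A middle last exon, which the distal share leaves out, was listed there in knockout replicate 3 alone, at 1.08 FPKM. Of all last-exon FPKM the distal one carried 88.8% in knockout and 58.4% in wild type on average (limma adjusted p = 0.605). The distal last exon on the scaffold overlapped between the groups, at 1.92 to 3.05 FPKM in knockout and 1.94 to 2.53 FPKM in wild type. On chromosome 21 its values were 1.70, 1.38 and 2.13 FPKM in knockout and 2.22, 3.55 and 2.16 FPKM in wild type, where the groups lie close but do not overlap.

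The 4 loci that moved towards the proximal end in knockout were more varied. On scaffold GL018707 from 207285 to 246193, a plus-strand locus without an Ensembl ID, the 2 ends nearly replaced each other. The proximal last exon (682 bases, 226749 to 227430) had 3.07, 2.70 and 4.04 FPKM in knockout and was not listed in wild type. The distal one (240 bases, 245954 to 246193) had 2.15, 2.71 and 3.78 FPKM in wild type, 0.618 FPKM in knockout replicate 1 and no row in the other knockouts. The distal share was 16.8%, 0% and 0% in knockout and 100% in each wild type (limma adjusted p = 0.00153), and it passed in all 6 fits that left out 1 library. The summed level of the locus overlapped between the groups, at 2.70 to 4.04 FPKM in knockout and 2.15 to 3.78 FPKM in wild type.

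A like exchange was seen on scaffold GL018766 from 868172 to 889721 (ENSOCUG00000006734, plus strand). Its proximal last exon (885496 to 886005) had 4.05, 4.62 and 2.82 FPKM in knockout and was not listed in wild type. Its distal one, only 67 bases long (887124 to 887190), had 2.27, 5.24 and 2.174 FPKM in wild type and 1.69 FPKM in knockout replicate 1 alone. The distal share was 29.4%, 0% and 0% against 100% in each wild type (limma adjusted p = 0.00883). With 1 library dropped the distal share passed in 5 of 6 fits (adjusted p at most 0.0519). The test of the same shares among all last exons (limma adjusted p = 0.0119) held in 2 of 6 (adjusted p up to 0.0643). This is the 1 called locus where a first exon was listed beyond the proximal last exon.

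On chromosome 19, the minus-strand locus from 48918532 to 49013333 (ENSOCUG00000012090) gained a proximal end. The 419-base proximal last exon (48934231 to 48934649) had 2.04, 2.39 and 2.93 FPKM in knockout and was not listed in wild type. The distal one (48918532 to 48922313) had 3.21, 2.82 and 4.35 FPKM in knockout and 2.78, 1.95 and 2.59 FPKM in wild type. The distal share fell from 100% to 58.3% ± 3.72 (SD, n = 3, limma adjusted p = 0.00259) and passed in all 6 fits that left out 1 library. Every knockout library was above every wild-type library for both ends. The summed level was 5.26, 5.21 and 7.28 FPKM in knockout and 2.78, 1.95 and 2.59 FPKM in wild type, and this difference did not pass (limma adjusted p = 0.0769).

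The locus on chromosome 2 from 149078269 to 149103285 (ENSOCUG00000007230, plus strand) was the only called distal share with both ends listed in all 6 libraries. Its proximal last exon (122 bases, 149099821 to 149099942) had 9.49, 4.88 and 2.23 FPKM in knockout and 0.385, 0.497 and 0.872 FPKM in wild type. Its distal one (282 bases, 149103004 to 149103285) had 6.46, 1.69 and 2.65 FPKM in knockout and 10.4, 9.48 and 9.04 FPKM in wild type. The groups are apart for both ends, in opposite directions. The distal share was 40.5%, 25.8% and 54.4% in knockout and 96.4%, 95.02% and 91.2% in wild type (difference -54.0 ± 7.60 points SE, limma adjusted p = 0.0370). With 1 library dropped the call held in 2 of 6 fits (adjusted p up to 0.172). Among the 77 loci listed throughout it did not pass (limma adjusted p = 0.0669), nor did the test of the same shares among all last exons (limma adjusted p = 0.0509). A minus-strand locus from 149099948 to 149112786 (ENSOCUG00000027336) covers the distal last exon. It was listed at 1.94, 1.29 and 1.69 FPKM in knockout while wild-type replicates 2 and 3 had 0.689 and 0.514 FPKM and wild-type replicate 1 had no row. The named library kit is not described as keeping the strand, so reads of the 2 loci may not be told apart, and the part of this overlap in the result was not tested. None of the other 10 called loci had a separate last exon overlapped by another locus with a listed last exon. Loci without a listed last exon were not searched.

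**Figure D3:**
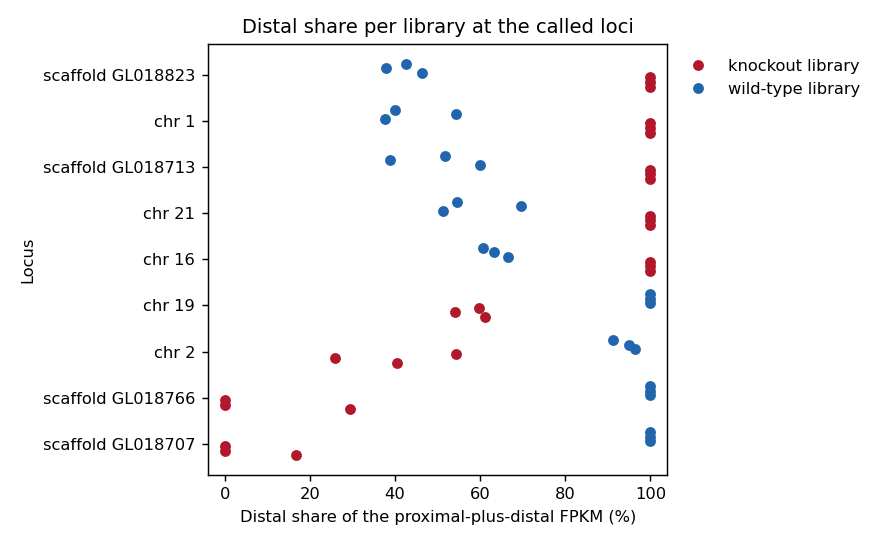
Distal share (x axis, % of the FPKM of the proximal and distal last exon together) in each library at the 9 loci with a called distal share (y axis, named by chromosome or scaffold), knockout libraries in red and wild-type libraries in blue. At each locus the knockout points lie to 1 side of the wild-type points, and at 8 of the 9 loci all 3 libraries of 1 genotype are at 100%.

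**Figure D4:**
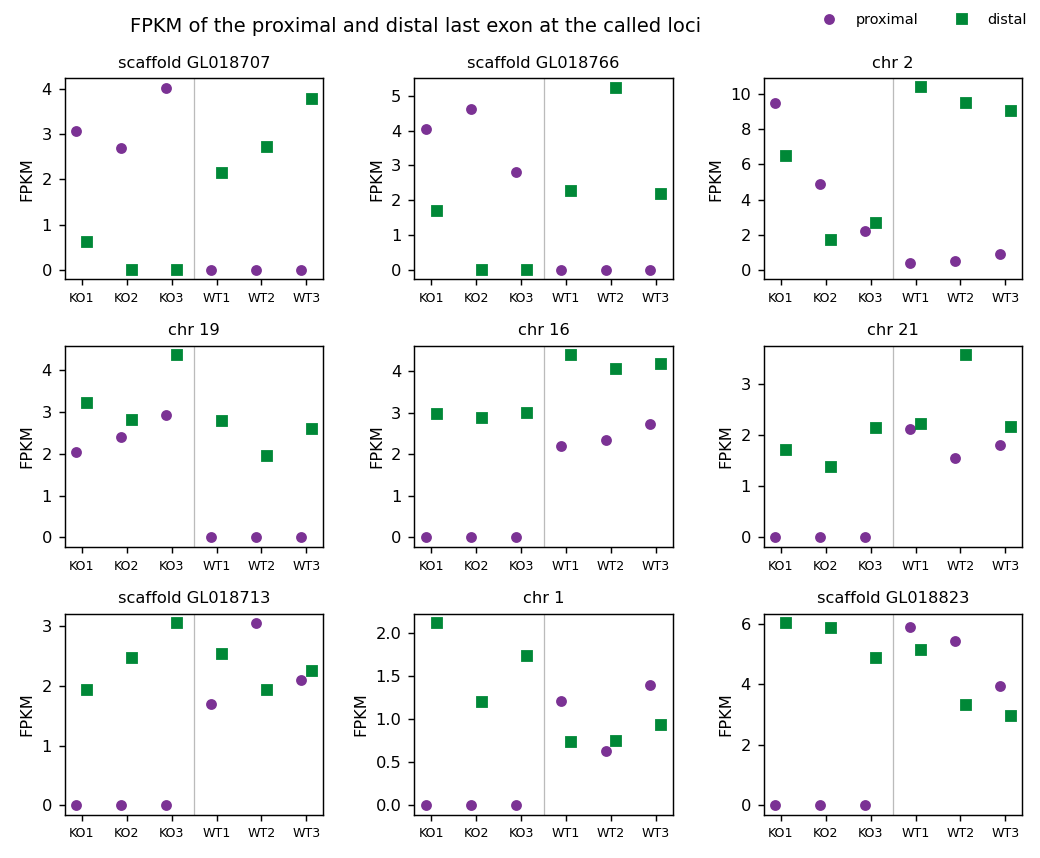
FPKM (y axis) of the proximal (purple circles) and distal (green squares) last exon in each library (x axis, KO for knockout and WT for wild type, with the replicate number) at the same 9 loci. A value of 0 means that the last exon is not listed, and apart from the chromosome 2 locus 1 end is at 0 in all 3 libraries of a genotype.

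The remaining 2 called loci had no called distal share and passed only in the test of each last exon on its share. On chromosome 3 from 15593290 to 15674214 (ENSOCUG00000025001, plus strand), a 151-base middle last exon (15624169 to 15624319) had 5.66, 5.53 and 5.93 FPKM in wild type and was not listed in knockout. Its share of 36.3%, 46.6% and 48.3% fell to 0% (limma adjusted p = 0.00944, passing in 4 of 6 fits that left out 1 library). The distal last exon of that locus (15672783 to 15674214) had 10.9, 7.61 and 7.19 FPKM in knockout and 9.91, 6.35 and 6.34 FPKM in wild type. Its share of all last-exon FPKM was called as well, at 95.7% in knockout and 56.3% in wild type on average (limma adjusted p = 0.0476). That call held in 1 of 6 fits with a library dropped (adjusted p up to 0.167). On chromosome 1 from 49527634 to 49559155 (ENSOCUG00000003468, minus strand), the distal-most last exon (2527 bases, 49527634 to 49530160) stood apart from 5 overlapping ones. It had 5.99, 1.94 and 0.985 FPKM in knockout and 9.22, 11.5 and 7.55 FPKM in wild type. Its share was 39.3%, 16.2% and 12.3% against 83.9%, 78.1% and 79.9% (limma adjusted p = 0.0438), and it was listed in all 6 libraries but held in 1 of 6 fits with a library dropped (adjusted p up to 0.151). Most of the balance went to an overlapping last exon of 8342 bases, at 43.9%, 83.8% and 52.6% in knockout and 12.0%, 12.9% and 11.6% in wild type.

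Among strongly expressed loci no distal share passed. Of 199 loci with at least 10 FPKM on average and a distal share in every library, the groups did not overlap at 21, with 7 higher and 14 lower in knockout. Over all 499 loci tested this was so at 7.62%, with 3.61% higher and 4.01% lower, and the uneven split at the 199 loci was not tested. The largest such difference was on chromosome X from 111487640 to 111496317 (ENSOCUG00000007220), at 99.3%, 0% and 7.48% in knockout and 99.5%, 99.6% and 99.4% in wild type (limma adjusted p = 0.586), where knockout replicate 1 lies with wild type. A steadier case was the chromosome 9 locus from 16836846 to 16881978 (ENSOCUG00000005926), with 2 last exons of 1090 bases each. Its distal share was 77.7%, 75.5% and 83.3% in knockout and 71.4%, 69.0% and 71.0% in wild type (difference 8.36 ± 3.00 points SE, limma adjusted p = 0.586). On chromosome 16 from 65847955 to 66126311 (ENSOCUG00000012175) it was 65.1%, 70.8% and 70.7% against 100%, 100% and 83.3% (limma adjusted p = 0.205). On chromosome 14 from 19362823 to 19508804 (ENSOCUG00000014724) it was 33.7%, 8.80% and 34.2% against 46.3%, 54.0% and 49.3% (limma adjusted p = 0.586).

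At some of these loci, which were listed because their groups do not overlap, 1 library lay far from the rest of its group. On chromosome 3 from 54592405 to 54604020 (ENSOCUG00000014283) the distal share was 36.7%, 93.0% and 34.6% in knockout and 31.4% to 32.9% in wild type, with knockout replicate 2 far above the rest. On chromosome 4 from 47738891 to 47811715 (ENSOCUG00000010899) it was 87.6%, 73.5% and 37.6% against 91.3%, 94.96% and 91.5%, with knockout replicate 3 lowest. The distal last exon there had 23.9, 8.57 and 1.89 FPKM in knockout and 41.4, 37.9 and 31.8 FPKM in wild type, whereas the proximal one stayed between 2.01 and 3.95 FPKM in all 6. Likewise on chromosome 1 from 114160919 to 114183204 (ENSOCUG00000013890), the distal last exon had 21.96, 17.5 and 1.29 FPKM in knockout and 25.6, 29.7 and 24.3 FPKM in wild type. On chromosome 3 from 69124290 to 69192988 (ENSOCUG00000007474) the distal share was 51.2%, 55.9% and 7.03% in knockout and 56.7%, 57.2% and 100% in wild type, so 1 library of each genotype lay far from its group. On chromosome 4 from 36760840 to 36820065 (ENSOCUG00000006945) it was 51.2%, 65.4% and 76.2% against 79.6%, 76.9% and 88.8%. On chromosome X from 51054500 to 51437820 (ENSOCUG00000024271) knockout was higher, at 46.7%, 39.997% and 63.2% against 37.7%, 28.4% and 38.2%. On chromosome 9 from 91623884 to 91664830 (ENSOCUG00000003929) it was 100% in each knockout and 95.8%, 94.98% and 93.5% in wild type. None of these passed (limma adjusted p = 0.586 for each).

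The 10 most abundant loci with 2 or more separate last exons showed how steady such a choice could be. On chromosome 8 from 49787957 to 49792030 (ENSOCUG00000023692), the distal last exon had 751 to 1018 FPKM and the proximal one 0.274 to 0.584 FPKM. On scaffold AAGW02082683 (ENSOCUG00000001757), with 430 to 956 FPKM in all, the distal share stayed between 77.8% and 84.4% in the 6 libraries. Others spread widely within a genotype. On scaffold GL019006 from 25424 to 33228 (ENSOCUG00000027154), the most abundant of the 10, it ranged from 36.0% to 73.0% in knockout and from 56.2% to 72.4% in wild type. On chromosome 17 from 9208776 to 9215689 (ENSOCUG00000014122) it was 40.8%, 27.9% and 25.99% in knockout and 33.7%, 14.7% and 67.3% in wild type. On chromosome 19 from 42365089 to 42450031 (ENSOCUG00000014208) knockout replicate 2 had 6.18% where the others had 44.0% to 60.8%. On the opposite strand 6 other assembled loci overlap that locus, and 5 of them overlap a separate last exon. None of the 10 differed between the groups beyond this spread (limma adjusted p of 0.586 or above).

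**Figure D5:**
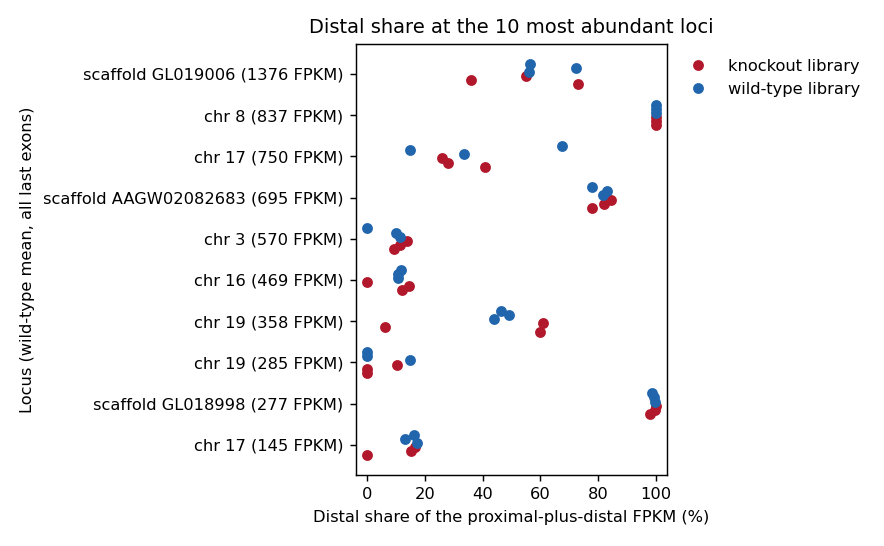
Distal share (x axis, % of the FPKM of the proximal and distal last exon together) in each library at the 10 loci with the highest summed last-exon FPKM (y axis, with the wild-type mean in FPKM), knockout libraries in red and wild-type libraries in blue. Red and blue points overlap or lie close together at each locus, and the widest spread is seen on chromosomes 17 and 19 and scaffold GL019006.

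The level of each last exon was compared next, on log2(FPKM + 1) with limma over all 9744 last exons with at least 1 FPKM in 3 or more libraries. Of the 860 members that met this minimum, 30 at 27 loci passed, 16 higher and 14 lower in knockout (3.49%, against 1.85% of all last exons tested, of which 0.893% were higher and 0.954% lower). A member listed in 1 genotype alone meets the minimum only through that genotype, so this share is not a rate among all members. Indeed 24 of the 30 were not listed in any library of 1 genotype, 5 were listed in all 6 libraries, and 9 were also called by share. The groups did not overlap for 227 of the 860 members (26.4%, against 26.9% of all tested), 74 of them higher and 153 lower. Over all last exons tested 9.48% were higher and 17.4% lower without overlap. The median log2 change was -0.15 for members and -0.08 over all last exons tested. The count of 30 was 13 without knockout replicate 2 or 3, 20 without knockout replicate 1, and 2, 0 and 2 without wild-type replicates 1, 2 and 3. Only 17 of the 30 could still be tested in each such fit.

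Presence in 1 genotype was counted without any minimum. Of the 2308 members, 29 were listed in the 3 knockouts and in no wild type (1.26%, against 0.739% of all last exons), and 26 in the 3 wild types and in no knockout (1.13%, against 0.871%). These shares are not like for like, because members were listed less regularly. Listing in exactly 3 libraries of any genotype was found for 6.63% of members. It was 9.90% for overlapping last exons and 3.86% for last exons alone at their locus. The largest of the second kind was a proximal last exon on the minus strand of chromosome 4 (36529461 to 36530213, ENSOCUG00000003786), at 24.5, 17.4 and 22.3 FPKM. Plus-strand loci with the same Ensembl ID cover it, and 1 of them (36500795 to 36552282) had 19.7, 17.8 and 26.4 FPKM in knockout and 51.1 and 42.6 FPKM in wild-type replicates 1 and 2, with no row in wild-type replicate 3. On chromosome 7, all 3 separate last exons of the plus-strand locus from 90606807 to 90632483 (ENSOCUG00000017458) were listed in wild type alone, led by the middle one at 4.36, 10.2 and 5.68 FPKM. That locus lies within a minus-strand locus of the same Ensembl ID, which had 33.1, 49.1 and 21.1 FPKM in knockout and 66.9, 92.4 and 50.5 FPKM in wild type. The part of such opposite-strand assemblies in these listings was not tested.

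Of those listed in knockout alone, that with the highest mean was a distal last exon on chromosome 17 (76620712 to 76622577, ENSOCUG00000010316), at 0.623, 12.2 and 0.851 FPKM. Its mean rested on knockout replicate 2. A minus-strand locus without an Ensembl ID (76617596 to 76637094) covers this last exon. It was listed at 0.549 and 1.39 FPKM in knockout replicates 2 and 3 and at 0.704 FPKM in wild-type replicate 3. The middle last exon at 92892143 to 92893510 on chromosome 12 (ENSOCUG00000000909, minus strand) had 4.54, 3.31 and 3.13 FPKM. The distal last exon of that locus was listed at 5.25 to 6.59 FPKM in 5 libraries and was missing in knockout replicate 3. On chromosome 15 from 66333927 to 66575967 (ENSOCUG00000012421), a 352-base proximal last exon (66413097 to 66413448) had 3.07, 2.49 and 4.58 FPKM, beside a distal one with 29.1 to 42.5 FPKM in all 6 libraries. It carried 7.89% to 10.2% of the locus in knockout. The proximal share difference of 8.71 ± 2.37 points (SE) did not pass (limma adjusted p = 0.321). On chromosome 13, the locus from 32016935 to 32085067 (ENSOCUG00000024275) had its distal last exon at 1.98, 2.32 and 3.86 FPKM in knockout and no row for it in wild type.

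The summed last-exon FPKM of whole loci was compared last, and 12 of 817 loci with members passed (limma on log2(FPKM + 1) over 9401 loci, adjusted p under 0.05), 9 higher and 3 lower in knockout. That is 1.47%, against 1.24% of all loci tested (0.66% higher and 0.585% lower). Of the 12, 8 had no library at 1 FPKM or more in 1 genotype and met the minimum through the other alone, so this share is not a rate among all loci with members. The groups did not overlap at 210 (25.7%, against 26.8% of all loci tested), 67 higher and 143 lower, where 9.38% of all loci were higher and 17.4% lower. Among the 8 that met the minimum through 1 genotype was a chromosome 13 locus from 39473515 to 39476159 (ENSOCUG00000025593). It had 80.4, 92.0 and 129 FPKM in knockout and no row in wild type (limma adjusted p = 2.41e-05). An opposite-strand locus overlaps it, at 235 to 986 FPKM in knockout and 40.0 to 77.8 FPKM in wild type. The locus on chromosome 16 described earlier was the only one of the 12 also called by share. Of the other 11, 3 were listed in all 6 libraries. On the minus strand of scaffold GL019146, the locus from 18666 to 42838 (ENSOCUG00000013608) had 24.5, 27.2 and 34.4 FPKM in knockout and 7.47, 9.80 and 5.75 FPKM in wild type (log2 change 1.79 ± 0.22 SE, limma adjusted p = 0.0174, passing in 2 of 6 fits that left out 1 library). On the minus strand of chromosome 15, the locus from 73292196 to 73468449 (ENSOCUG00000001289) fell from 24.0, 21.5 and 23.0 FPKM to 11.6, 11.6 and 9.998 FPKM (log2 change -0.98 ± 0.14 SE, limma adjusted p = 0.0285, passing in 1 of 6). The third was on scaffold GL018715, where the plus-strand locus from 2451119 to 2504901 (ENSOCUG00000009827) had 98.3, 87.6 and 130 FPKM in knockout and 29.6, 26.2 and 38.9 FPKM in wild type (log2 change 1.71 ± 0.22 SE, limma adjusted p = 0.0184). The proximal last exon (2452863 to 2455361) rose (log2 change 1.94, limma adjusted p = 0.0129), a call that held in 2 of 6 fits with a library dropped (adjusted p up to 0.106). The distal one (2502608 to 2504901) had 5.37, 4.57 and 3.86 FPKM in wild type and was not listed in knockout. The distal share, 0% in knockout and 18.1%, 17.4% and 9.92% in wild type, did not pass (limma adjusted p = 0.197). A first exon was listed beyond the proximal end. An opposite-strand locus (2452830 to 2543365, ENSOCUG00000009825) covers both ends and was listed in knockout alone, at 6.13, 14.1 and 2.89 FPKM. The call on the summed level held in 1 of 6 fits with a library dropped (adjusted p up to 0.136).

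Loci with many separate last exons differed in how often their members were listed. Described here are the 3 loci with 6 and the 2 most abundant of the 7 loci with 5. On chromosome 11 from 7319602 to 7384747 (ENSOCUG00000004659), none of 6 separate last exons was listed in more than 3 libraries. A plus-strand locus (7255667 to 7348326, ENSOCUG00000004646) overlaps all 6, at 10.4 to 19.8 FPKM over the libraries. The part of this overlap in their listing was not tested. On chromosome 18 from 23394078 to 23622030, a locus without an Ensembl ID had 6, each listed in a single library and each of 56 to 107 bases. On chromosome 15 from 103839533 to 103996746 (ENSOCUG00000013330), 6 last exons were listed, of which the distal one (0.420 to 3.86 FPKM) and the middle one at 103880729 to 103883001 (0.792 to 6.02 FPKM) were listed in all 6 libraries. The latter had 0.927, 0.792 and 2.20 FPKM in knockout and 2.53, 3.69 and 6.02 FPKM in wild type, without overlap between groups. On chromosome 7 from 59424129 to 59542196 (ENSOCUG00000011375), with 5, the distal last exon carried 61.3% to 79.5% in every library, at 6.87 to 8.51 FPKM. On chromosome 12 from 57125998 to 57255851 (ENSOCUG00000009236), also with 5, it carried 93.5%, 65.1% and 24.9% in knockout and 80.6%, 94.5% and 100% in wild type, with knockout replicate 3 lowest. Among those of these last exons that could be tested, none passed the share test (limma adjusted p of 0.626 or above).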

How the data were processed

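Skin RNA of rabbits aged 30 days was extracted with Trizol, and libraries were prepared with the NEBNext Ultra RNA kit, per the labels' protocols. Demultiplexing and trimming tools listed by the submitters' processing notes are bcl2fastq 2.17.1.14 and cutadapt. The aligner, assembler and build were not given in the sources used here. FPKM per transcript event, the unit of the 6 deposited tables, was computed by the authors, per the file headers. The tables hold no row at 0, and the lowest value is 0.000171 FPKM.

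Last-exon events were ordered by strand as proximal, middle or distal, and missing rows entered as 0. Shares were tested linearly and levels as log2(FPKM + 1), which understates the change of low values. Tests used limma 3.58.1 in R 4.3.3 with a genotype term alone. They were two-sided, and p-values were adjusted by Benjamini-Hochberg over all features tested at a threshold of 0.05. Each test was first tried on simulated data with normal noise, which did not model rows missing from a whole genotype. False calls made up 6.52% for last-exon shares, 3.31% for distal shares, 3.94% for levels and 6.30% for locus levels. A share change of 0.25 was recovered in 53% of last-exon shares and 61% of distal shares. A log2 change of 1 was recovered in 35% of levels and 42% of locus levels. Shares needed at least 1 FPKM in every library, and levels at least 1 FPKM in 3 libraries.

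Loci named are all called loci, the 10 most abundant, the largest distal-share differences without overlap among loci of at least 10 FPKM (8 at most in each direction), the 6 most abundant last exons listed in each genotype alone, and the 5 loci with the most separate last exons (ties by FPKM). The members and lists were chosen with earlier results of these data known. Minimum FPKM, scale, pseudocount, library weights, a replicate block and leaving out each library were tried as alternatives.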

Additional observations from a re-analysis of the deposited data

How the results depend on the processing

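For shares, 17 separate last exons were called, and under several other settings 14 to 19. They were 16 with no minimum and 15 on the log2 ratio (8 of them among the 17). Array quality weights gave 19, and adjustment together with first exons gave 14. Keeping only last exons at least 100 bases apart reused the same fit and left the 17, since none of these lies closer, so it could not change the count. The count was 1 at a minimum of 5 FPKM and 4 among last exons listed in all 6 libraries. Leaving out 1 library gave 8 to 23, with 8 without knockout replicate 2. The 9 called distal shares were 0 at a minimum of 5 FPKM (limma, 11 of 219 at an unadjusted p under 0.05), where none of the 9 loci could be tested. They were 0 among loci with both ends listed in all 6 libraries (limma, 5 of 77 unadjusted). Leaving out 1 library gave 8 to 10, and the log2 ratio gave 6, of which 4 were among the 9. Levels gave 30 calls, and 0 to 20 with 1 library left out. At the 0, without wild-type replicate 2, limma left 82 at an unadjusted p under 0.05. Locus levels gave 12 calls, 7 with no filter on low values, 37 with array quality weights, and 1 to 8 with 1 library left out, with 5 and 1 without knockout replicates 1 and 2 and 2 without each wild-type replicate. The cause of these shifts was not tested. Fewer features were also tested at 5 FPKM and in all 6 libraries.

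No pairing by replicate number was seen in the last-exon shares. Their deviations from the group means correlated at 0.0022, 0.0110 and 0.0269 between libraries of equal number. Not every library correlated best with its own number. Pairing that does not move these shares could not be seen this way. With the replicate block limma called 0 shares (72 at an unadjusted p under 0.05), 0 distal shares (24 unadjusted), 10 levels and 6 locus levels. Alternatives in which a named call could no longer be tested were left out of the next totals. Of the results that remained, 123 of 196 for named shares and 67 of 100 for distal shares stayed past the threshold. For levels 81 of 122 stayed and for locus levels 14 of 34, and 0 reversed. These totals are therefore not rates over all alternatives. Without counts, depth limits cannot be given, and with 3 libraries per group the absence of a row may be a failed assembly.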
